A study of Homo sapiens with 8 samples.

Results

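The genes described here are the HOX genes, taken as every platform gene symbol made of HOXA, HOXB, HOXC or HOXD and a number from 1 to 13 with nothing after it. Of 39 such genes in RefSeq, 29 had a named probe on the array, out of 20042 genes with a probe in all. The 29 were HOXA2, all 10 genes of HOXB, all 9 of HOXC and all 9 of HOXD. The other 10 HOXA genes had no named probe and were not analysed here. Where a gene had several probes, the brightest over the 8 arrays stood for it.

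HOX genes encode homeodomain transcription factors that lie in 4 clusters, on chromosomes 7 (HOXA), 17 (HOXB), 12 (HOXC) and 2 (HOXD) in human. In the embryo they are switched on in the order in which they lie in the cluster, and so give cells their position from head to tail, low numbers towards the head and high numbers towards the tail. They bind DNA together with homeodomain cofactors of the PBX, MEIS and PKNOX families, are silenced by Polycomb complexes, are kept active by the MLL (trithorax) methyltransferases, and respond to retinoic acid. Adult cells and tumours often keep part of a positional HOX pattern, and altered HOX expression is common in breast cancer.

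The arrays carried RNA of SUM159 trailblazer cells. SUM159 is a human triple-negative, mesenchymal-like breast cancer line, and trailblazer cells are an invasive subpopulation of it. The cells held the doxycycline-inducible pLIX vector, either empty (WT in the titles) or encoding V5-tagged ΔNP63α, a p63 isoform that marks basal epithelium. Each line was grown for 5 days without treatment or with 1 ug/ml doxycycline, which gave 4 groups of 2 arrays. All 4 groups therefore share the parental line, and both vector lines have a doxycycline group. The labels do not say whether a line was a clone or a pool, nor whether the 2 arrays of a group came from different cultures. The p-values below therefore rest on the spread between arrays, which may be technical. TP63 had 0 named probes, and the vector labels could not be checked against the induced gene. Of the line's mesenchymal markers 7 of 8 with a probe were measured (all but FBN1). Of the luminal markers CDH1, EPCAM and ESR1 were below background, as were the basal markers KRT5 and DSG3, the leukocyte markers PTPRC and CD3E and all 3 endothelial markers, whereas the luminal markers KRT8, KRT18, GATA3, FOXA1 and ELF3, the basal keratin KRT14, and CD14 and HBB from the blood list were measured.

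Among the HOX genes with a named probe, which include only HOXA2 of the HOXA cluster, those measured in these cells lay mostly in HOXC. A gene counted as measured when its intensity exceeded a background level of 114.38 on both arrays of at least 1 group. The level is the upper 5% point of a normal background centred on the most frequent intensity, 106.89, with an SD of 4.55 taken from the intensities beneath it. By this rule 12 of 29 HOX genes (41.4%) were measured, against 61.7% of all genes with a probe. The measured genes were 7 of 9 in HOXC (HOXC4, HOXC6, HOXC8, HOXC9, HOXC10, HOXC11 and HOXC13), 2 of 10 in HOXB (HOXB5 and HOXB6), 2 of 9 in HOXD (HOXD3 and HOXD11), and HOXA2. On all 8 arrays 9 were above the level, 6 of them in HOXC, together with HOXA2, HOXB6 and HOXD3. By position in the cluster, 2 of 6 head-ward genes (numbers 1 to 3), 5 of 11 central genes (4 to 8) and 5 of 12 tail-ward genes (9 to 13) were measured.

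Just inside the threshold, HOXB5 passed only through the uninduced ΔNP63α arrays (115.5 and 114.9), HOXC11 only through the induced ΔNP63α arrays (129.8 and 115.9), and HOXD11 only through the empty-vector arrays with doxycycline (116.5 and 116.2). HOXD4 was just outside, above the level on 3 arrays but never on both of a group, as were HOXB4 and HOXC5 on 2 arrays each. Of the 17 genes below background, 10 were above the level on no array: HOXB2, HOXB3, HOXB8 and HOXB9, HOXC12, and HOXD1, HOXD8, HOXD9, HOXD12 and HOXD13. The last of these, HOXD13, is the digit-patterning gene mutated in synpolydactyly, and its probe stayed between 100.2 and 109. HOXB13, a prostate HOX gene, reached the level on 1 array, and so did HOXB1, HOXB7 and HOXD10. A probe below background sets a limit for that probe and does not show that the gene is silent. HOXC4 has a second probe (ILMN_1757184), annotated to the same transcript, that stayed between 105.5 and 113.6 on arrays where the first probe (ILMN_1719975) read from 480.3 to 758. HOXC6 has 4 probes, of which the brightest (ILMN_1794492) read from 498.6 to 825.5 and the others from 99.6 to 128.1. HOXB6 has a second probe (ILMN_1768101), annotated to the same transcript as the first. It read from 106.1 to 117.3 and was above the level on 1 array, where the first read from 118.1 to 127.6. The HOXA2 probes, by contrast, lay close to each other, at 122.2 to 132.6 and 117.4 to 136.7.

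**Figure D1:**
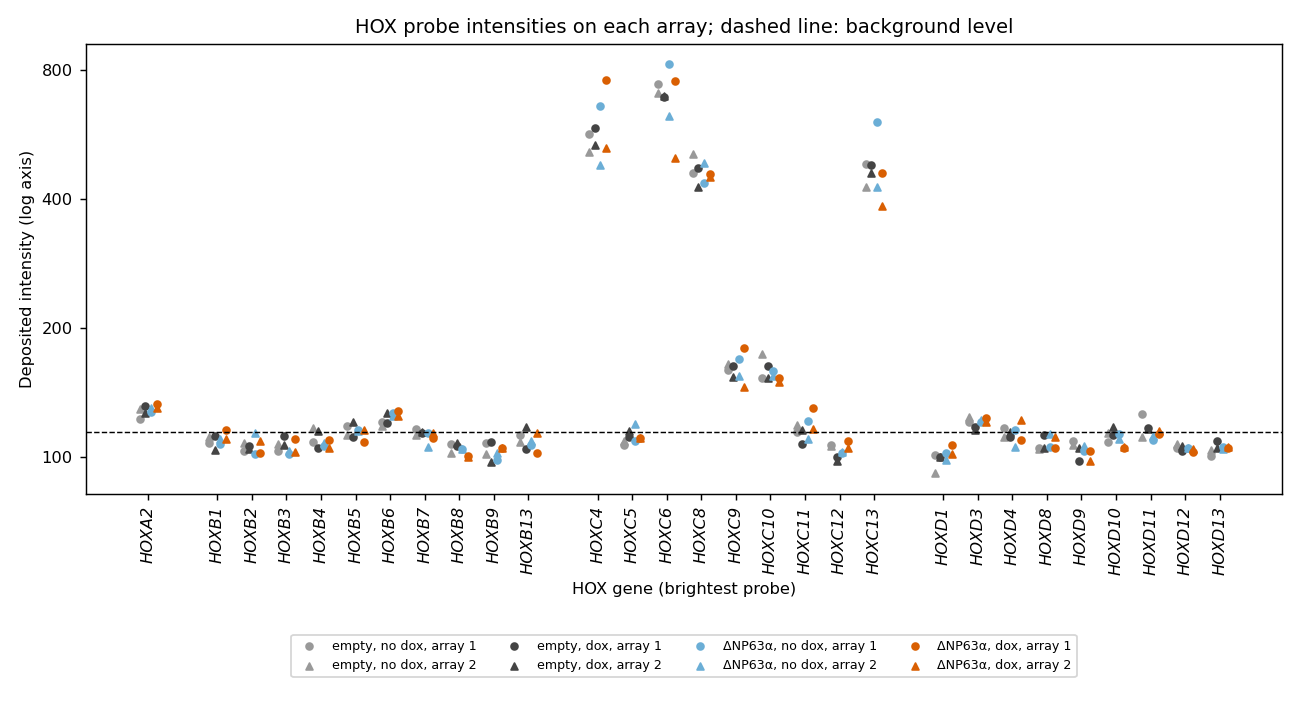
Deposited intensity (log axis) of the brightest probe of each of the 29 HOX genes on each of the 8 arrays, ordered by cluster, with circles for replicate 1, triangles for replicate 2 and the background level of 114.38 as a dashed line. HOXC4, HOXC6, HOXC8 and HOXC13 stood between 385.1 and 825.5 on every array, while most HOXB and HOXD probes lay at or below the line. Heights of different probes do not rank the genes.

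HOXC4 and HOXC5 have the same promoter window in RefSeq, chr12:54016638-54016937 on the plus strand of GRCh38.p14. The window runs from 250 bases before to 50 bases after the annotated start. It is shown because the HOXC4 probe read far above background on all 8 arrays, whereas the HOXC5 probe (ILMN_1803907) read from 106.7 to 118.9. Which exons either probe reads is not known here. None of the motifs searched was found in it, so it carries no capitals.
HOXC4 and HOXC5: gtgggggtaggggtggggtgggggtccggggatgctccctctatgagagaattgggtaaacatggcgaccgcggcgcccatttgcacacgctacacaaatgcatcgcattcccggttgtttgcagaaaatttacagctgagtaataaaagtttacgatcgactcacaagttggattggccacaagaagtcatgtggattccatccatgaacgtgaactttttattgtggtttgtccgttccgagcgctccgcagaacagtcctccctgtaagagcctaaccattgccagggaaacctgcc

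Of the 29 genes, 12 had a promoter window in the RefSeq table, 11 of them distinct, and 4 of these belonged to measured genes (HOXA2, HOXC4, HOXD3 and HOXD11). Motifs were searched on both strands. The composite PBX-HOX site TGATTNAT was found in 2 of the 11 windows, those of HOXA2 and HOXD11, and in 2.82% of all 34943 promoter windows. The MEIS hexamer TGACAG, which PKNOX proteins also bind, was found in 2 (HOXA2 and HOXD4), against 15.8% of all windows. The homeodomain core TAATTA was in 2 (HOXD3 and HOXD11), against 4.85%, and a half-site of the p53 family, to which p63 belongs, was in 1 (HOXD4), against 6.64%. The HOXA2 window, chr7:27102634-27102933 on the minus strand of GRCh38.p14, is shown because it holds sites for both kinds of HOX cofactor described further on. Its capitals mark the PBX-HOX site, read here on the opposite strand, and then the MEIS hexamer, which does not overlap it. Such a match is a string of letters and not a measured binding site.
HOXA2: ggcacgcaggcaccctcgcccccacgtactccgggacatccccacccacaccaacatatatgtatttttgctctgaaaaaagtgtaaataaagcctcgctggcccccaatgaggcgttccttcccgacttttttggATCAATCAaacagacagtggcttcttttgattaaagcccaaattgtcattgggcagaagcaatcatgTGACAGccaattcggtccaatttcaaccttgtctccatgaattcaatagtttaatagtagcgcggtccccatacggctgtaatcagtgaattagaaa

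Doxycycline in the ΔNP63α line, the comparison that addresses induction of ΔNP63α, gave no HOX gene past the test: 0 of 12 were called by limma at an adjusted p under 0.05, where 2.73% of 12359 tested genes were called (337). None of the 12 had an unadjusted p under 0.05, and the smallest adjusted p was 0.484. On the log2 scale 6 differences were positive and 6 negative, with a median of 3e-04 beside -0.01 over all genes. The median size without regard to sign was 0.07, beside 0.11 over all genes. The 95% intervals bound what these arrays allow: over the 12 genes the lowest bound was 0.63-fold (HOXC13) and the highest 1.51-fold (HOXC4), so every interval lay within a 2-fold change in either direction. Before the log, an offset of 50 was added to the background-corrected values, which shrinks fold changes most for the dim probes (HOXA2, HOXB5, HOXB6, HOXC11, HOXD3 and HOXD11); with an offset of 16 the bounds were 0.6 and 1.6.

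HOXC13 had the largest difference. It controls hair and nail keratin genes, and its loss causes a human hair and nail dysplasia. Its intensities were 605.2 and 427.5 in the uninduced ΔNP63α cells and 459.6 and 385.1 in the induced cells, against 483.4 and 427.4 in empty-vector cells without doxycycline and 481.4 and 459.9 with it. The high value was 1 uninduced ΔNP63α array, and the induced and uninduced arrays overlapped. The log2 difference was -0.30 ± 0.17 (SE, n = 2 arrays per group; 95% interval -0.67 to 0.06, limma adjusted p = 0.484). The interaction, which sets the doxycycline effect in the ΔNP63α line against that in the empty-vector line, was -0.36 for HOXC13 (-0.87 to 0.16, limma adjusted p = 0.766). Both values depended on the uninduced pair: without the first uninduced ΔNP63α array they were -0.03 and -0.08, and without the second -0.58 and -0.63.

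HOXC6, a central gene active in the thoracic region of the mouse embryo, read 825.5 and 624.6 uninduced and 753.1 and 498.6 induced. In the empty-vector cells it read 743.6 and 706.2 without doxycycline and 693.6 and 695.6 with it. The lowest HOXC6 value of all 8 arrays was thus the second induced array, while the first induced array lay between the uninduced pair. The log2 difference was -0.25 ± 0.19 (SE, n = 2; -0.66 to 0.16, limma adjusted p = 0.649).

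HOXC4 gave values of 659.2 and 480.3 uninduced and 758 and 526.1 induced, beside 566.7 and 515.8 in empty-vector cells without doxycycline and 586.6 and 535.1 with it. The highest and the lowest of its 8 values were both in the ΔNP63α line, and all groups overlapped. The log2 difference was 0.18 ± 0.19 (SE, n = 2; -0.23 to 0.59, limma adjusted p = 0.752). Without the first induced array the sign turned, to -0.10, and without the second uninduced array it was -0.07. The HOXC6 difference likewise became 0.07 without the second induced array. Within each replicate number, by contrast, HOXC4 was higher and HOXC6 lower with doxycycline. The labels do not say whether the numbers mark pairs.

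HOXC8, which sets thoracic identity and the fate of forelimb motor neurons in the mouse, had the narrowest relative spread of the 4 bright HOXC probes. It read 436.5 and 484.8 uninduced, 457.4 and 450.7 induced, 461.2 and 508.5 in the empty-vector cells and 472.8 and 426.2 in the empty-vector cells with doxycycline. The induced pair lay between the uninduced pair. Its log2 difference of -0.02 had a 95% interval from -0.27 to 0.22, a range of 0.832-fold to 1.17-fold.

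HOXC10, a lumbar and hindlimb gene in the mouse, read 158.6 and 154.3 uninduced and 152.7 and 149.6 induced, so that its groups did not overlap, but its log2 difference was -0.07 (-0.32 to 0.18, limma adjusted p = 0.86). Only HOXC10 and HOXD11 had doxycycline groups that did not overlap in this line, 2 of 12 genes, while 43% of all tested genes did so. HOXD11, which patterns the forearm with its HOXA paralog in the mouse, read 109.1 and 111.8 uninduced and 112.9 and 114.6 induced, all but 1 of these values under the background level. HOXC11 read 121.4 and 109.9 uninduced and 129.8 and 115.9 induced, with overlap (log2 difference 0.14, -0.14 to 0.41).

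HOXC9, which specifies thoracic motor neurons in the mouse, spanned 145.1 to 179.8 over the 8 arrays, and both of these extremes were induced ΔNP63α arrays. HOXA2, the second pharyngeal arch gene, spanned 122.2 to 132.6, HOXB5 108.4 to 120.2, HOXB6 118.1 to 127.6 and HOXD3 115.4 to 123.6. The log2 differences of these 5 genes with doxycycline in the ΔNP63α line lay between -0.07 (HOXB5) and 0.04 (HOXA2).

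**Figure D2:**
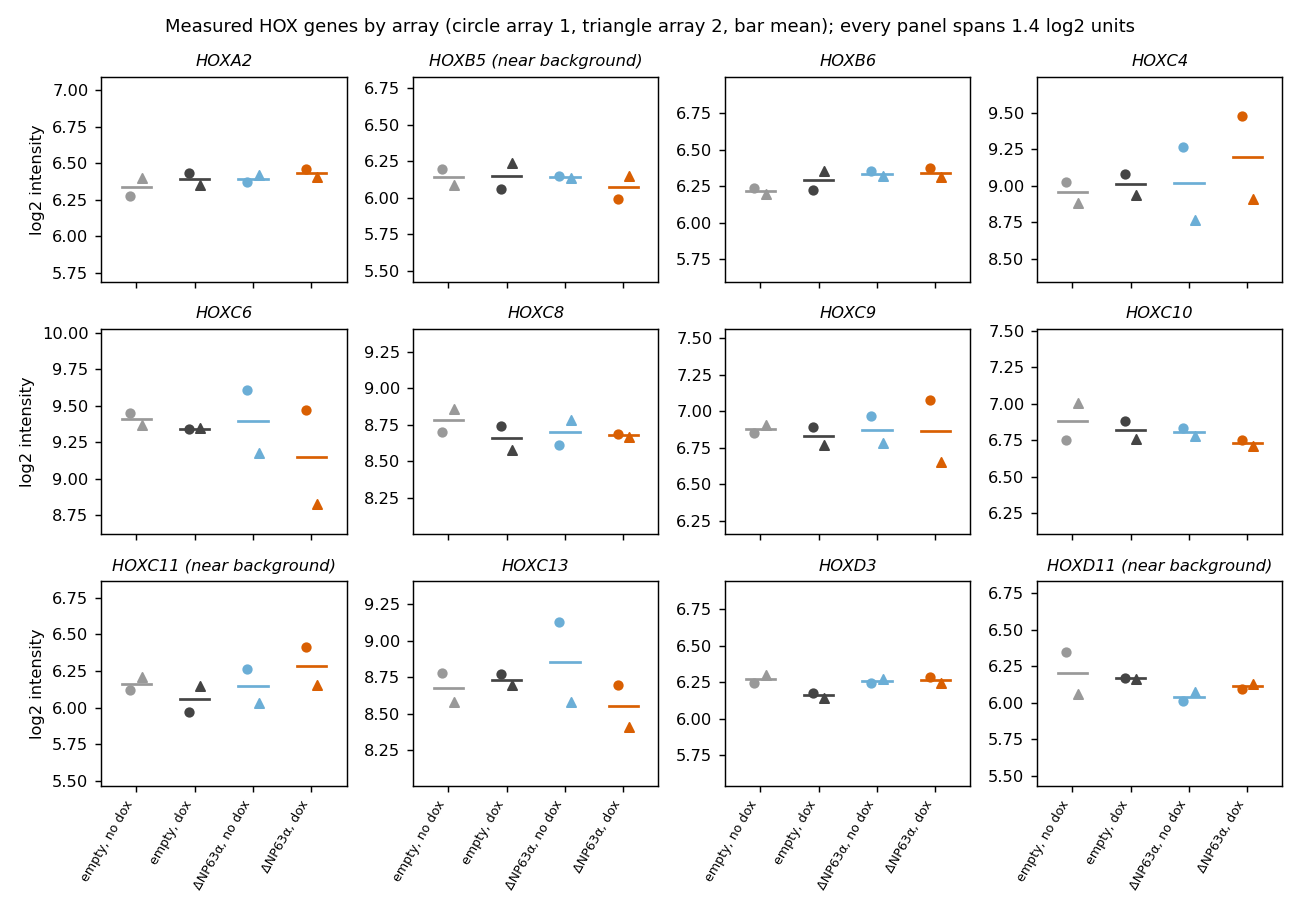
Background-corrected log2 intensity of the 12 measured HOX genes on each array (circle, replicate 1; triangle, replicate 2; bar, mean of 2 arrays), in the 4 groups, with every panel spanning the same range on the log2 scale. The ΔNP63α arrays of HOXC4, HOXC6 and HOXC9 are spread more widely within a group than their means differ between groups.

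For HOXC4, HOXC6, HOXC9 and HOXC13 the widest spread was between replicates of the ΔNP63α line. Within it, replicate 1 was above replicate 2 both without and with doxycycline for 7 of the 12 HOX genes (58.3%), against 30.7% of all tested genes, and for 5 of the 6 HOXC genes above background on all 8 arrays: HOXC4, HOXC6, HOXC9, HOXC10 and HOXC13. In the empty-vector line this held for 3 of the 12 HOX genes (25%) and 26.9% of all tested genes. The pattern was noticed in these data and is a description with no test. The SD of HOXC6 log2 values was 0.30 and 0.45 in the uninduced and induced ΔNP63α pairs (n = 2 each), and 0.06 and 0.0032 in the empty-vector pairs without and with doxycycline. Those of HOXC4 were 0.35 and 0.40 against 0.10 and 0.10. The reverse held for HOXC10, at 0.04 and 0.03 in the ΔNP63α pairs against 0.18 and 0.09. HOXA2, HOXB5, HOXB6, HOXD3 and HOXD11 also had their largest SD in an empty-vector pair. What differs between the replicates of the ΔNP63α line was not tested.

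Doxycycline in the empty-vector line, which measures the drug without the transgene, gave 0 of 12 HOX genes past the test, where 0% of all genes were called by limma (0 of 12359, with 540 at an unadjusted p under 0.05 and a smallest adjusted p of 0.9908). The HOX log2 differences ran from -0.12 (HOXC8) to 0.07 (HOXB6), 5 positive and 7 negative, with a median of -0.04 beside -0.003 over all genes. Groups did not overlap for HOXC6 and HOXD3, 2 of 12 against 34% of all genes. HOXD3 read 120.6 and 123.6 without and 117.1 and 115.4 with doxycycline, a log2 difference of -0.11 (-0.32 to 0.10). The interval bounds over the 12 genes were 0.719-fold and 1.38-fold. In the interaction 0 of 12 were called, against 0.728% of all genes (90), and the values ran from -0.36 (HOXC13) to 0.24 (HOXC11). The interval bounds of the interaction were 0.546-fold (HOXC13) and 1.63-fold (HOXC4). With an offset of 16 they were 0.512-fold (HOXC13) and 2.1-fold (HOXC11), and 11 of the 12 intervals lay within 2-fold.

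The uninduced ΔNP63α line was set against the empty-vector line to see what the lines differ in before induction. Here 0 of 12 HOX genes and 0.0485% of all genes were called (6). The largest HOX log2 differences were those of HOXC13 (0.18, -0.19 to 0.54) and HOXD11 (-0.16, -0.41 to 0.09). HOXD11 read 125.8 and 111.2 in the empty-vector cells, so its difference came with 1 array above the others. HOXB6 was the 1 gene of the 12 without overlap, where 42% of all genes had none. It read 120.3 and 118.1 in the empty-vector cells and 126.4 and 124.5 in the ΔNP63α cells, a log2 difference of 0.12 (-0.10 to 0.33). Its second probe, below background, gave 0.03. Next in size after HOXB6 were HOXC8 and HOXC10, both at -0.08, and HOXC4 at 0.06.

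With doxycycline in both lines, the ΔNP63α cells differed from the empty-vector cells in 9.76% of all genes (1206), and again in 0 of 12 HOX genes. This comparison shares the induced arrays with the first one. The HOX log2 differences were 7 positive and 5 negative, with a median of 0.03 beside 0.002 over all genes and a median size of 0.08 beside 0.14. HOXC11 had the largest: it read 107.3 and 115.5 in the empty-vector cells with doxycycline and 129.8 and 115.9 in the induced ΔNP63α cells, without overlap. The log2 difference was 0.23 ± 0.13 (SE, n = 2; -0.05 to 0.50, limma adjusted p = 0.316). HOXC11 was kept only through these induced arrays, so the filter itself favours such a difference, which was 0.10 without the first of them. HOXC6 (-0.20, -0.61 to 0.21), HOXC4 (0.18, -0.23 to 0.60) and HOXC13 (-0.18, -0.54 to 0.18) followed, then HOXD3 (0.11) and HOXC10 (-0.09). Groups did not overlap for HOXC10, HOXC11, HOXC13, HOXD3 and HOXD11, 5 of 12 genes, against 52.1% of all genes. HOXD11 was kept only through the empty-vector arrays with doxycycline (116.5 and 116.2, against 112.9 and 114.6 induced). The filter thus favours its difference here too. All 12 intervals lay within 2-fold, from 0.656-fold (HOXC6) to 1.51-fold (HOXC4). With an offset of 16 the upper bound rose to 1.8-fold (HOXC11), and 1 of the 12 intervals left out equality.

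**Figure D3:**
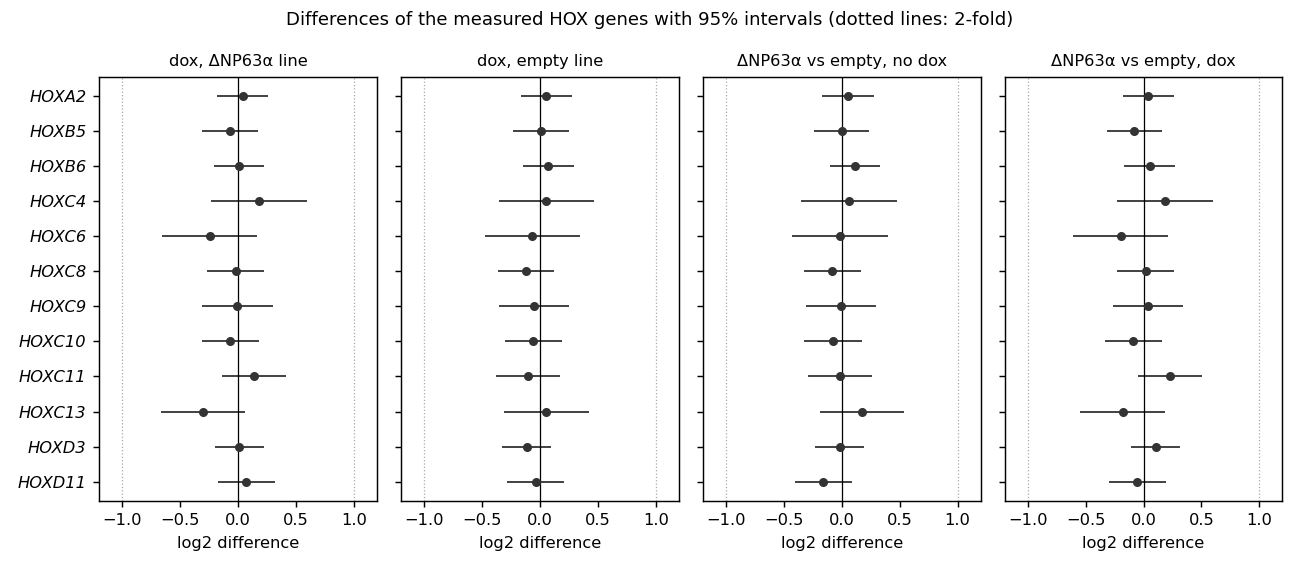
Log2 differences of the 12 measured HOX genes in 4 comparisons, with points for the limma estimate, bars for the 95% interval and dotted lines at a 2-fold change. Every interval crossed 0, and HOXC4, HOXC6 and HOXC13 had the widest.

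Genes that work with the HOX proteins, or control the clusters, were listed and fitted in the same model. Among the cofactors, 8 were measured (PBX2, PBX3, PBX4, MEIS1, MEIS2, MEIS3, PKNOX1 and PKNOX2). With doxycycline in the ΔNP63α line 0 of 8 were called. Between the vector lines 1 of 8 was called, both without and with doxycycline (against 0.0485% and 9.76% of all genes): PKNOX2, a TALE homeodomain protein related to the MEIS factors. Its intensities were 355.6 and 310.7 in empty-vector cells and 366.3 and 303.5 with doxycycline, but 161.7 and 124.5 in uninduced and 148.6 and 124.6 in induced ΔNP63α cells. All 4 ΔNP63α arrays lay below all 4 empty-vector arrays. PKNOX2 was lower by a log2 difference of -1.57 ± 0.19 without doxycycline (2.97-fold lower, limma adjusted p = 0.0187), 1 of the 6 genes called there, and of -1.66 ± 0.19 with it (3.17-fold lower, limma adjusted p = 0.000358). Doxycycline itself moved it by -0.09 (-0.49 to 0.32) in the ΔNP63α line. Without background correction, or without either uninduced empty-vector array, the first of these calls was lost (log2 difference -1.23, -1.46 and -1.69, limma adjusted p = 0.0976, 0.429 and 0.162).

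Among 25 measured Polycomb genes, which keep HOX clusters silent, 0 were called for doxycycline in the ΔNP63α line and 2 were lower in ΔNP63α than in empty-vector cells when both had doxycycline, where 9.76% of all tested genes were called. EZH2, the methyltransferase that places the repressive histone mark, read 566.6 and 444.3 in the empty-vector cells and 281.6 and 275.8 in the induced ΔNP63α cells, without overlap. Its log2 difference was -0.96 ± 0.14 (SE; limma adjusted p = 0.00157), and its other 2 probes gave -0.52 and -0.58. Without doxycycline EZH2 read 436.2 and 377.2 in empty-vector and 340.8 and 316.2 in ΔNP63α cells (-0.35, limma adjusted p = 0.424). The EZH2 log2 difference with doxycycline was 0.34 in the empty-vector line and -0.28 in the ΔNP63α line, neither called. On its other 2 probes it was -0.09 and -0.01 in the empty-vector line, and -0.33 and -0.28 in the ΔNP63α line. PCGF6, a subunit of a variant Polycomb complex, was lower by -0.42 ± 0.12 (limma adjusted p = 0.0495), but its other probes gave -0.11 and -0.20 and the call was lost under most alternatives. In the empty-vector cells PCGF6 read 720.4 and 605.4 without doxycycline and 819.4 and 821.7 with it. In the ΔNP63α cells it read 646 and 582.7 uninduced and 660.4 and 589.9 induced. Its log2 difference with doxycycline was 0.33 in the empty-vector line and 0.03 in the ΔNP63α line, neither called. Between the lines with doxycycline the median of the 25 genes was -0.09, beside 0.002 over all genes. Of 14 measured trithorax and MLL genes, 0 were called in any of the 5 comparisons. Of 6 measured genes in the list of CDX and other HOX regulators, 0 were called in any.

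In the retinoic acid pathway, 2 of 10 measured genes rose with doxycycline in the ΔNP63α line and none fell, where 2.73% of all tested genes were called. RXRA, the retinoid receptor partner, read 803.5 and 837.4 uninduced and 1197.3 and 1175.5 induced, against 663.1 to 826.4 on the 4 empty-vector arrays. It rose by 0.56 ± 0.11 on the log2 scale (1.47-fold, limma adjusted p = 0.0239). DHRS3, a retinaldehyde reductase induced by retinoic acid, read 282 and 286.3 uninduced and 399.8 and 395.3 induced, and rose by 0.56 ± 0.13 (1.47-fold, limma adjusted p = 0.0413). Against empty-vector cells with doxycycline the differences were 0.76 for RXRA and 0.83 for DHRS3 (limma adjusted p = 0.00216 and 0.0026). DHRS3 read 217.1 to 268.8 on the 4 empty-vector arrays, below both uninduced ΔNP63α arrays. Without doxycycline its log2 difference between the lines was 0.37 (0.09 to 0.65, limma adjusted p = 0.37), and that of RXRA was 0.07. The interaction was called for neither (limma adjusted p = 0.0967 for RXRA and 0.469 for DHRS3). The doxycycline call of RXRA was lost without any 1 of the 4 ΔNP63α arrays (limma adjusted p = 0.0821 to 0.156), and that of DHRS3 likewise (0.134 to 0.2).

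Transcripts and genes beside the clusters gave few calls. Of 5 non-coding HOX transcripts with a probe, 1 was measured: HOTTIP, from the tail-ward end of HOXA. It read 115 and 116.2 uninduced and 125.2 and 129.8 induced, against 105.1 to 114.9 on the empty-vector arrays. It was kept only through the 2 ΔNP63α groups, so the filter favours a higher value there, and it was not called (0.22, -0.01 to 0.46, limma adjusted p = 0.394 for doxycycline in the ΔNP63α line; 0.35, 0.11 to 0.58, limma adjusted p = 0.0628 between the lines with doxycycline). The 5 probes for microRNA genes of the clusters (MIR10A, MIR10B, MIR196A1, MIR196A2 and MIR196B), looked at after the data were seen, were all below background, with at most 1 array above it. Of 14 measured neighbours of the clusters, NFE2L1, a stress-response transcription factor near HOXB, was the 1 called: it read 651.3 and 581.1 in empty-vector cells and 875.9 and 952.6 in ΔNP63α cells, both with doxycycline (0.61 ± 0.11, limma adjusted p = 0.00565), in a comparison that called 9.76% of all genes. Without doxycycline NFE2L1 read 627 and 642.6 in empty-vector and 764.5 and 716.3 in ΔNP63α cells (0.24, limma adjusted p = 0.494). Doxycycline in the ΔNP63α line moved it by 0.32, which was not called (limma adjusted p = 0.175).

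Homeobox genes outside the clusters were the comparison for the family. Of 88 with a probe, 38 were measured, and 1 of the 38 was called for doxycycline in the ΔNP63α line, near the 2.73% of all genes: PRRX2, a paired-class mesenchymal homeobox gene. PRRX2 read 345 and 371 uninduced and 193.3 and 190.5 induced, and 303.2 to 406.2 on the 4 empty-vector arrays. It fell by 1.09 ± 0.16 on the log2 scale (2.13-fold lower, limma adjusted p = 0.0032), and lay 2.09-fold below the empty-vector cells with doxycycline (limma adjusted p = 0.00215). The difference between 0 of 12 HOX genes and 1 of 38 others was not tested.

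**Figure D4:**
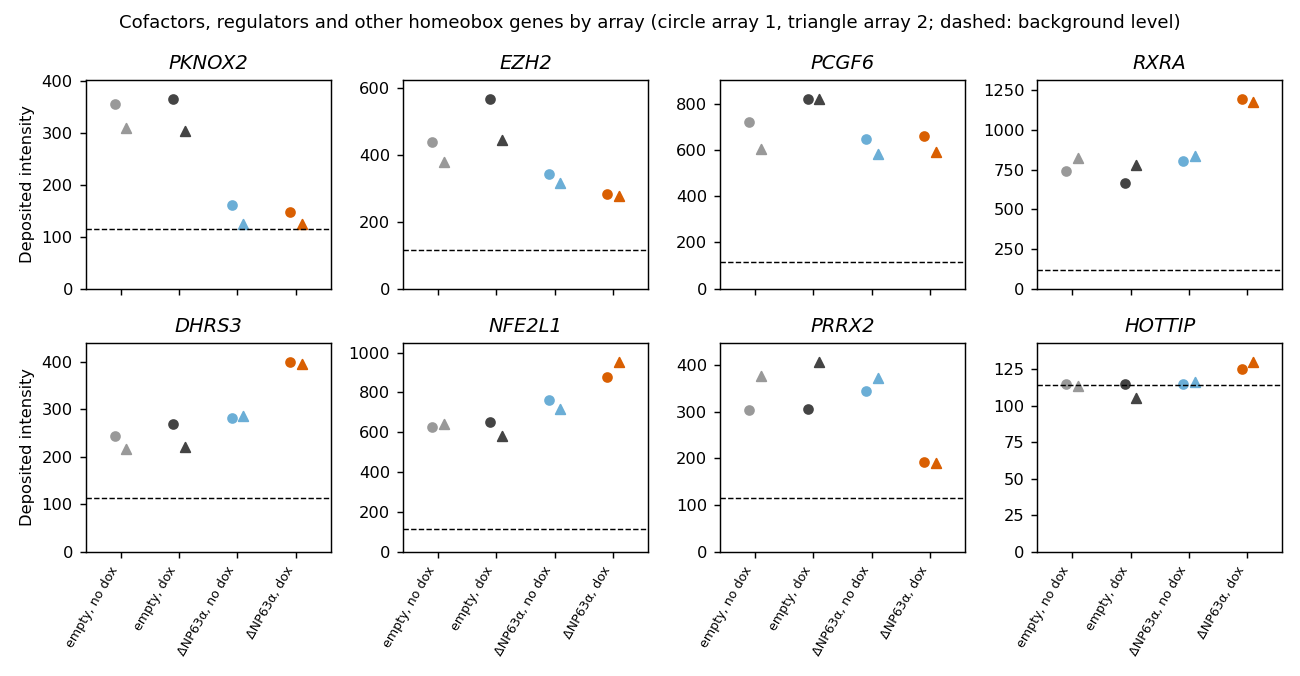
Deposited intensity (linear axis from 0) of 8 genes related to HOX function on each array, with circles for replicate 1, triangles for replicate 2 and the background level as a dashed line. PKNOX2 was low on all 4 ΔNP63α arrays with or without doxycycline, RXRA, DHRS3 and NFE2L1 were highest and PRRX2 and EZH2 lowest on the induced arrays, and HOTTIP stayed close to background.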

How the data were processed

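The values used were linear probe intensities for 47304 probes on 8 arrays, as the authors deposited them in the value table; the software is not given in the sources used here. The values were already quantile normalised (all arrays shared a median of 113.5). Per the labels, biotinylated cRNA was hybridised to Illumina arrays. A second deposited table has 16 columns of per-sample values whose names match no label, so it was not used, nor were its detection p-values or a slide block.

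Intensities were background corrected by normexp with an offset of 50, put on the log2 scale, and fitted with limma 3.58.1 in R 4.3.3: 1 mean per group over all 8 arrays, eBayes, 5 comparisons, two-sided tests, Benjamini-Hochberg adjustment over 12359 genes. Residual degrees of freedom were 4 and prior ones 7.47. The script was checked on simulated data. The number of arrays limits the precision. Probe symbols came from the platform annotation: 30105 probes had 1 symbol, 8 several and 17191 were not listed. Promoter windows came from RefSeq (GRCh38.p14).

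The HOX genes and the lists of related genes were chosen with earlier results of these data known. Per-array values are given for the HOX genes among the 6 largest differences in any of 3 comparisons (doxycycline in the ΔNP63α line, and the lines against each other without and with it), and list genes are named where called. Alternatives covered the background correction, offset, filter, probe choice, arrays fitted, a replicate block, eBayes and leaving out each array.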

Additional observations from a re-analysis of the deposited data

Results flagged for a closer look

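PRRX2, a homeobox gene outside the HOX clusters, stood out because its response to doxycycline differed between the vector lines by a test of the difference itself: the interaction was -1.16 ± 0.22 on the log2 scale (SE; limma adjusted p = 0.0425, n = 2 arrays per group). It was lower on both induced ΔNP63α arrays than on all 6 others. The call was lost without background correction (-0.96, limma adjusted p = 0.133) and on leaving out 7 of the 8 arrays, all but the first empty-vector array with doxycycline (limma adjusted p = 0.0673 to 0.215). Over all alternatives the interaction ranged from -1.39 to -0.92, with an adjusted p from 0.00789 to 0.215. No HOX gene met this criterion.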

How the results depend on the processing

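Over 18 settings 1053 HOX differences were recomputed, and 0 were called. The smallest adjusted p was 0.0885 (HOXC6 between the lines with doxycycline, without the first induced array). The number of HOX genes above background was 9 when all 8 arrays had to pass, and 12 to 16 when an array was left out. Leaving out an array loosens the rule, since that group then passes on its remaining array, so the count could not fall. Signs changed in 69 of these uncalled values, 17 of them by over 1 SE. With the second brightest probe, HOXC6 between the lines with doxycycline was 0.0021. Leaving out each array, the uncalled values that changed sign by over 1 SE ranged as follows. With doxycycline in the ΔNP63α line HOXC4 ranged from -0.104 to 0.4632, HOXC6 from -0.5679 to 0.0741 and HOXC9 from -0.2207 to 0.2069. In the empty-vector line HOXC10 ranged from -0.1847 to 0.0707 and HOXD11 from -0.179 to 0.1073. The interaction ranged from -0.1599 to 0.4073 for HOXC4, -0.5027 to 0.1393 for HOXC6 and -0.1715 to 0.2561 for HOXC9. Between the uninduced lines HOXC4 ranged from -0.187 to 0.3093, HOXC6 from -0.2296 to 0.1995, HOXC10 from -0.2028 to 0.0526 and HOXC13 from -0.0982 to 0.4518. With doxycycline in both, HOXC4 ranged from -0.0987 to 0.4684, HOXC6 from -0.5178 to 0.1243 and HOXC9 from -0.1768 to 0.2507. The median HOX difference, leaving out each array, ran from -0.039 to 0.0448 for doxycycline in the ΔNP63α line, -0.0433 to -0.0139 in the empty-vector line, -0.0458 to 0.1001 for the interaction, -0.0982 to 0.0588 between the uninduced lines and -0.0179 to 0.0738 with doxycycline. Counts over all genes moved with the setting, and the cause was not tested. Without background correction the interaction had 59 calls and the uninduced lines 3; with a replicate block they had 155 and 27. The uninduced lines had 18 calls at offset 16, 11 without a filter and 25 with robust eBayes and a trend. Fitting only the arrays compared gave 181 calls for doxycycline in the ΔNP63α line, 37 between the uninduced lines and 718 with doxycycline. Leaving out each array gave 121 to 341, 0 to 0 (empty-vector line), 33 to 98 (interaction), 0 to 9 (uninduced lines) and 380 to 1159. Outside the family, the RXRA and DHRS3 doxycycline calls were also lost at offset 16 (adjusted p = 0.0527 and 0.0604), DHRS3 without background correction (0.0634) and without either uninduced empty-vector array (0.0649). NFE2L1 was lost without the second doxycycline-treated array of either line (0.0591 and 0.052). Arrays of the same replicate number had deviations that correlated over genes with r from 0.04 to 0.433. The highest values were within a line, without against with doxycycline: 0.433 for ΔNP63α and 0.211 for the empty vector. The lowest, 0.04 and 0.046, set the uninduced empty-vector group against the 2 ΔNP63α groups. As r was over 0.1 in 4 of the 6 pairs of groups but not in all, the labels' numbers were not taken as pairs. Within each number HOXC6 and HOXC13 were lower and HOXC4 higher with doxycycline in the ΔNP63α line, and no HOX gene was called with the block. Dim probes and 2 arrays per group limit these results: HOXA2, HOXB5, HOXB6, HOXC11, HOXD3 and HOXD11 lay close to background, where differences are compressed.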
